A study of Mus musculus with 4 samples.

Results

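The genes described here are 40 regulators of alternative splicing: 17 heterogeneous nuclear ribonucleoproteins (hnRNPs), 3 genes of the polypyrimidine tract binding (PTB) family, 7 RNA-binding motif (RBM) genes, 7 regulators known for tissue-restricted action and 6 other RNA-binding regulators. They were chosen by gene symbol and not by a cut on measured values, although earlier results of these data were known. Each matched 1 of the 46603 gene IDs of the deposited table. The polyadenylated RNA sequenced came from mouse embryonic stem cells, with 2 biological replicates of wild-type cells, Gsk3a+/+;Gsk3b+/+, and 2 of Gsk3a-/-;Gsk3b-/- cells, which lack both forms of glycogen synthase kinase 3. All 4 cultures grew with serum and LIF, a cytokine that sustains pluripotency, on a layer of irradiated embryonic fibroblasts, so some RNA of feeder cells can be present. The sample labels give embryonic day 16 as the age, the design text gives E15, and neither describes the mutant alleles or says how many cell lines were used.

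Splicing regulators of these families decide which exons of a nascent transcript are kept. hnRNPs coat new transcripts and often repress nearby splice sites, PTB proteins bind pyrimidine-rich stretches and skip exons that are used in neurons and muscle, and Rbfox, Mbnl, Celf and Nova proteins set exon patterns in muscle, heart and brain. Many of them also bind their own transcripts and limit their own level. The series title names splicing factors as substrates of the kinase, and phosphorylation of a protein is not visible in these data, which measure the RNA level of each gene.

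The file compares a group A with a group B, and no source used here says which genotype is which. Values are therefore given for group B over group A. Gsk3a was lower in group B, with recovered normalized counts of 6353 and 7104 in group A against 1697 and 1347 in group B, and Gsk3b had 5438 and 6285 against 5051 and 5002. The log2 fold change was -2.14 for Gsk3a (adjusted p 4.90e-24) and -0.22 for Gsk3b (adjusted p 0.984), both from the authors' deposited table. The deleted stretches are not described, and no genotype was assigned to a group from these counts. The table holds group means, from which the whole read counts of each library were recovered. They are written A1 and A2 for group A and B1 and B2 for group B; the numbering is arbitrary and does not follow the labels. Total counts ranged from 112655210 to 146326307. A normalized count is a library's count divided by its size factor. All 2601 genes of chromosome X, all 1570 of chromosome Y and all 37 of the mitochondrial chromosome are listed at 0, against 61.5% to 80.3% of genes with a count on the 19 autosomes. None of the 40 regulators is on chromosome X. Of 12 pluripotency markers 0 were at 0. Their summed normalized counts were 904177 and 973687 in group A against 834133 and 843586 in group B. Of the 12, 8 were lower in both B libraries and 0 higher, 2 (Utf1 and Fgf4, named after their values were seen) passed as lower in the authors' deposited table, and the median log2 fold change of the 12 there was -0.32.

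Of the 40 regulators, 1 was higher and 0 were lower in group B past an adjusted p of 0.05 in the authors' deposited table. The background in the same file was 3.46% of 30237 genes in either direction, made up of 1.54% higher and 1.92% lower. Among genes with a mean normalized count of at least 10, which all 40 reached, it was 5.12%, and among those with at least 1000 it was 5.04%. The regulator that passed was Rbm47, at a log2 fold change of 0.70 (adjusted p 0.0137, authors' deposited table). At an unadjusted p of 0.05, again 1 of the 40 passed, against 10.5% of all genes in that table. The median log2 fold change of the 40 was -0.04 and that of 20465 genes whose mean reached 10 was 0.01, both from the authors' deposited table. The median absolute value was 0.14 for the regulators and 0.25 for those genes. For 10106 genes whose mean reached 1000, nearer to the regulators in abundance, it was 0.17. Values lay on both sides of 0, with 19 regulators above and 21 below.

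The limma test on the recovered counts called 0 of the 40 (2.01% of 20465 genes), and at an unadjusted p of 0.05 it listed 8 of them, against 20.7% of those genes. Its 95% intervals lay within a 2-fold difference in either direction for 38 of the 40 and within a 1.5-fold difference for 30. For these regulators a larger difference lies outside the interval. The exceptions at 2-fold were Rbm47 and the scarce Rbfox1. Narrow intervals were common among abundant genes. Of 10106 genes whose mean reached 1000, 9134 lay within 2-fold and 6441 within 1.5-fold. Of the 20465 genes, 11961 and 6896 did.

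**Figure D1:**
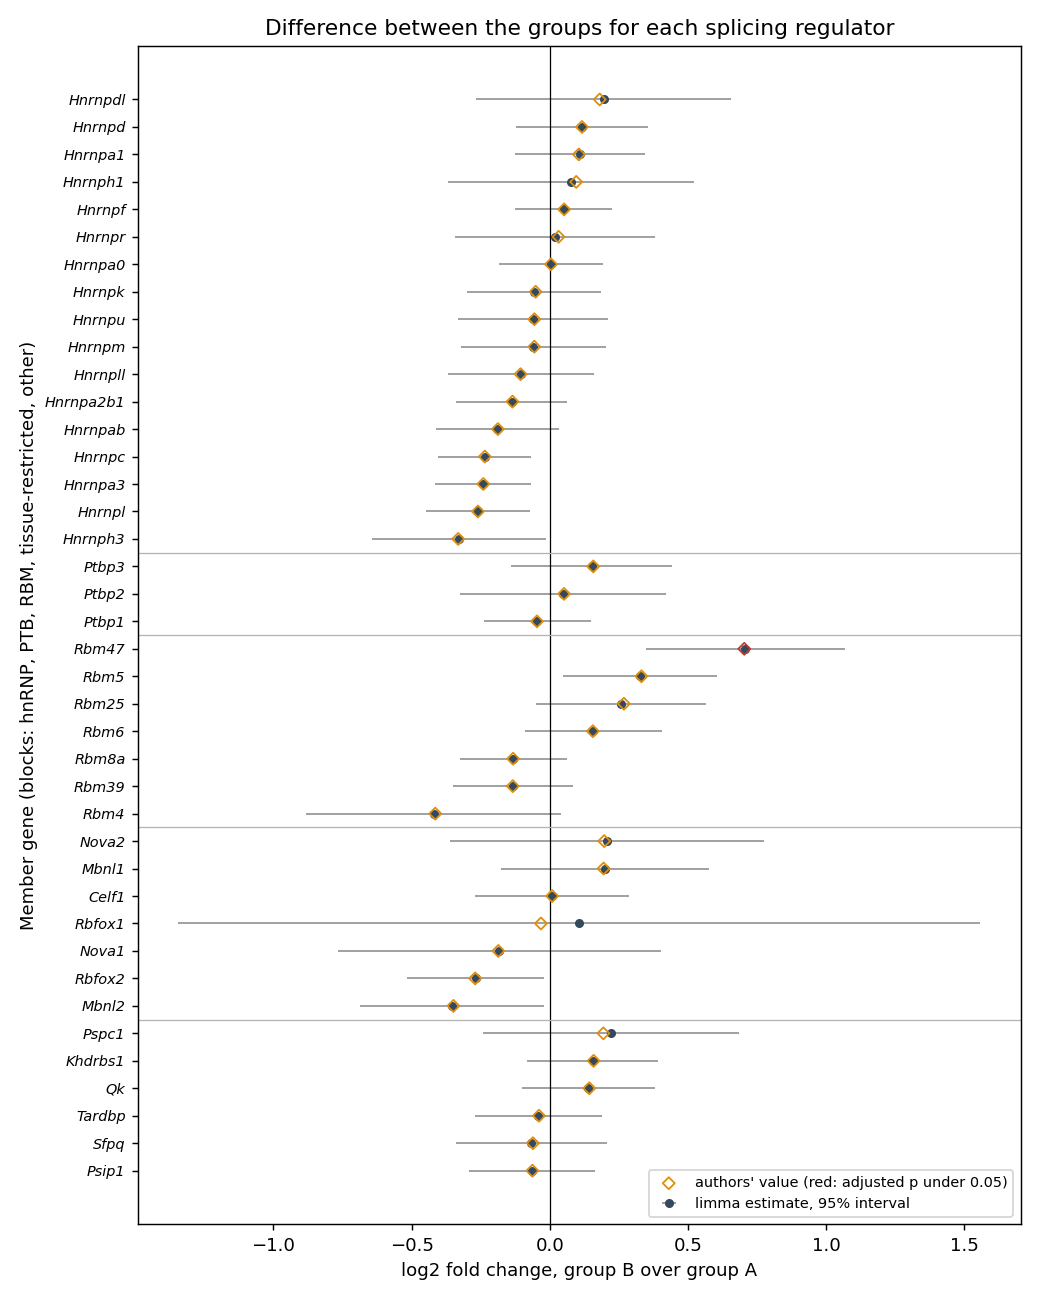
Log2 fold change of group B over group A for the 40 regulators, in blocks by family: filled points and bars are limma estimates with 95% intervals over 2 libraries a group, and open diamonds are the authors' values, red where the adjusted p is under 0.05. Rbm47 is the only red diamond, at 0.70, and the other 39 regulators lie between -0.41 and 0.33.

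Both B libraries lay above both A libraries for 7 regulators and below them for 11, so 18 of 40 had groups that did not overlap, against a background of 52.5% of these 20465 genes (26.4% higher, 26.0% lower). For 11 of the 40 the difference between the groups was larger than the gap between the libraries of either group, against a background of 39.9%. For 15 it was smaller than both gaps.

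The level per kilobase of exon ranged widely among the families. Normalized counts per kilobase, averaged over all libraries, had a median of 12214 for the hnRNPs, 1567 for the PTB genes, 959 for the RBM genes, 96.7 for the tissue-restricted regulators and 4824 for the other RNA-binding regulators. The median over the 20465 genes was 299. Together the 40 genes took 1.18% and 1.17% of the counts of libraries A1 and A2, and 1.18% and 1.07% of those of B1 and B2. Library B2 was the lowest of the 4, and 30 of the 40 regulators had a lower normalized count in B2 than in B1, a median log2 difference of -0.13. Among genes with at least 1000 normalized counts that median was -0.05. The summed normalized counts of 20 feeder fibroblast markers were 380536 and 266453 for A1 and A2, and 263280 and 538149 for B1 and B2. Their medians were 7051 and 3382 for A1 and A2, and 2192 and 9081 for B1 and B2. The part of feeder RNA in the regulators' values was not tested, and in bulk RNA fewer cells of a type cannot be told from less RNA per cell.

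**Figure D2:**
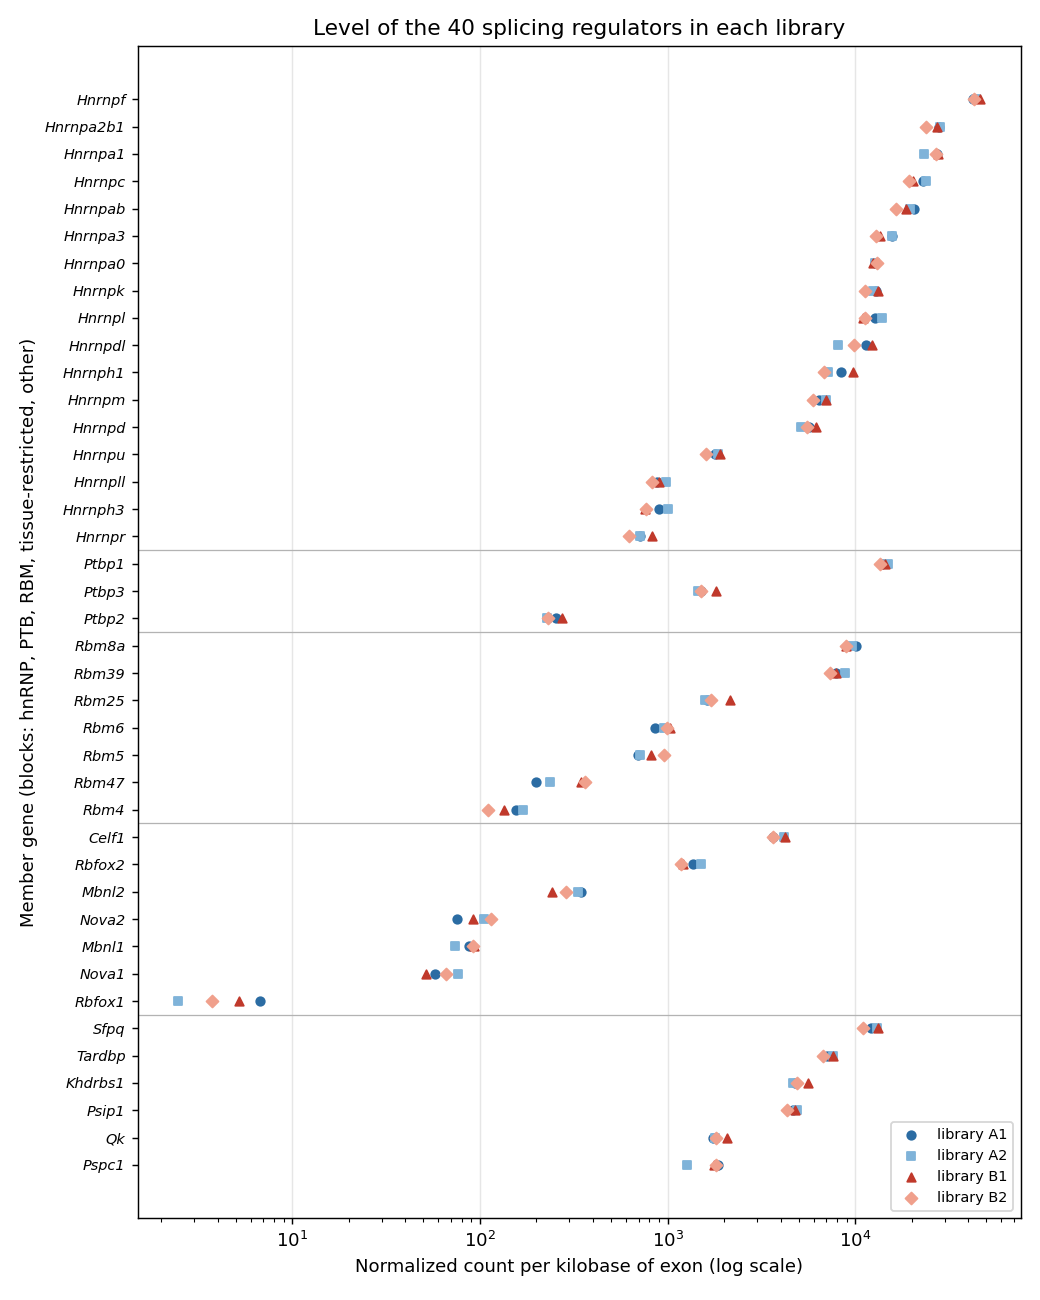
Normalized count per kilobase of exon, on a log axis, of each regulator in libraries A1, A2 (blue) and B1, B2 (red), in blocks by family and ordered by level. The range runs from Rbfox1, at a mean of 4.54, to Hnrnpf, at 43878, and most markers of a gene lie on top of each other.

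The bases before the start of transcription were a feature that the choice of genes did not use. RefSeq promoters on build GRCm38.p6 (mm10) were found by symbol for 34 of the 40, and not for Khdrbs1, Psip1, Hnrnpll, Rbfox2, Rbm8a and Ptbp3. In the 250 bases before the first listed start of each gene, the regulators had a median of 17.5 CG dinucleotides and 58.0% G or C. All 27025 genes with a listed promoter had medians of 6 and 52.0%. They include genes of any level, and genes matched to the regulators for level were not compared. The sequence CTTTGA, the core of sites bound by TCF and LEF factors, was present on either strand in 6 of the 34 windows (17.6%) and in 14.0% of all windows. Rbm47 was not among the 6, which were Hnrnpa1, Hnrnpf, Nova2, Rbfox1, Rbm4 and Rbm6. A match of 6 letters is a description and not a binding site. The sequences below are the bases from 250 to 51 before the start, with each CG in capitals, for the regulator with the most counts, the one past the threshold and the scarcest one. They hold 20, 5 and 2 CG dinucleotides, respectively, and lie at chr6:51469945-51470144 on the minus strand, chr5:66152005-66152204 on the minus strand and chr16:5884543-5884742 on the plus strand. The Rbm47 window lies inside the annotated span of the gene (66016549 to 66173118), so its first listed start is an internal one. Bases before the outermost start of Rbm47 were not examined, and its CG and CTTTGA values hold for the internal start only. Regulators without a sequence shown were not checked for an internal start.
Hnrnpa2b1: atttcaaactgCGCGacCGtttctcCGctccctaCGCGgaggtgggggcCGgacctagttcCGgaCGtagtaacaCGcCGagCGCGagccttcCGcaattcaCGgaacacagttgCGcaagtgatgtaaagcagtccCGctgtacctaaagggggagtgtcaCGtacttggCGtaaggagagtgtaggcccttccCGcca
Rbm47: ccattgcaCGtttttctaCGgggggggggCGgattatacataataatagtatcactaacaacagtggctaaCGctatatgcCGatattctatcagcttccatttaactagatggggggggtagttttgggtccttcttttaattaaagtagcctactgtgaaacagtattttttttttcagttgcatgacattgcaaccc
Rbfox1: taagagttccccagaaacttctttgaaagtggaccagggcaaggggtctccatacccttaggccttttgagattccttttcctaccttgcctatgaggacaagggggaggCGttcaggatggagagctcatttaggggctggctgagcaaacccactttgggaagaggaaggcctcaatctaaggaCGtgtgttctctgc

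Of the 17 hnRNPs, 0 passed as higher or lower by the authors' test, and 13 of them had an adjusted p of 1 in the authors' deposited table. Their median log2 fold change there was -0.06, with 7 above and 10 below 0 and a range from -0.33 to 0.18. At an unadjusted p of 0.05 the count was 0 in that file, and limma called 0 with 4 at that level (background 20.7%). In 6 of the 17, group B lay wholly below group A, and in 0 wholly above, against backgrounds of 26.0% and 26.4%.

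The most abundant per kilobase was Hnrnpf, which binds G-rich stretches near splice sites (chromosome 6, 117900324 to 117925622, mm10). Hnrnpf had 129251 and 133323 normalized counts in group A against 141388 and 130823 in group B, and the groups overlapped. Hnrnpa2b1, a repressor of exon inclusion that also sorts RNA for transport, had the most counts of all 40, with 182857, 185503, 178692 and 156792 in A1, A2, B1 and B2. Its A libraries lay above its B libraries, and B2 was the lowest. The log2 fold change of Hnrnpa2b1 was -0.13 (adjusted p 1) in the authors' deposited table. Its relative Hnrnpa1, which competes with SR proteins at splice sites, had 86208, 73628, 87507 and 84418. A2 was the low library there and the groups overlapped. Hnrnpa1 has a processed copy in the table, Hnrnpa1l2-ps, with normalized counts of 2573 to 3042, so reads may have been split between them.

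Beside Hnrnpa2b1, the abundant hnRNPs whose group B libraries were both below group A were Hnrnpc, Hnrnpa3, Hnrnpab and Hnrnpl. Hnrnpc, which binds uridine tracts and keeps cryptic exons out, had normalized counts of 99735, 102332, 87680 and 84026 in A1, A2, B1 and B2. The log2 difference was -0.24 (SE 0.07, adjusted p = 0.137) in limma and -0.23 (adjusted p 0.917) in the authors' deposited table. Hnrnpa3 had 84577, 84143, 73228 and 69593 (limma -0.24, SE 0.07, adjusted p = 0.137). Hnrnpl, which binds CA repeats, had 75957, 82532, 65296 and 67062 (limma -0.26, SE 0.08, adjusted p = 0.141). For these 3 genes the gap between the groups exceeded the gap between the libraries of each group, and the difference did not pass either test. Hnrnpab, which also binds single-stranded DNA, had 57143, 54216, 51902 and 45887, with B2 again lowest. Its log2 difference between groups, -0.19, was also larger than its gaps within groups A and B, -0.08 and -0.18. Exons of the Phykpl gene on the other strand cover 29.1% of the exon bases of Hnrnpab, and whether reads were counted by strand is not stated.

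The lowest log2 fold change among hnRNPs was that of Hnrnph3, a scarce relative of Hnrnph1, at -0.33 (adjusted p 0.625) in the authors' deposited table. Its normalized counts were 2848, 3184, 2375 and 2419, with both A libraries above both B libraries. The highest was that of Hnrnpdl at 0.18, followed by Hnrnpd at 0.12, each with an adjusted p of 1 in the authors' deposited table. Hnrnpd (AUF1) binds AU-rich elements and affects mRNA decay, and the related Hnrnpdl lies 54639 bases from it on chromosome 5. Hnrnpdl had 55176, 38842, 58898 and 47664 in A1, A2, B1 and B2, and Hnrnpd had 41661, 37615, 45396 and 40545. In both genes A1 was above A2 and B1 above B2, and the groups overlapped. Hnrnpll, which is induced when lymphocytes are activated, had 10259, 11437, 10487 and 9679.

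The other hnRNPs were Hnrnpa0, Hnrnph1, Hnrnpk, Hnrnpm, Hnrnpr and Hnrnpu, with log2 fold changes from -0.06 to 0.10 in the authors' deposited table. All 6 had overlapping groups. Hnrnpa0 was the most even, with 34041, 34046, 33473 and 34819 in A1, A2, B1 and B2. In all 6 the gap between B1 and B2 was larger than the difference between groups, by most in Hnrnph1 and Hnrnpr. Hnrnph1 had 57105 in B1 and 39831 in B2, and Hnrnpr had 18385 and 13848.

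In the PTB family the order of levels per kilobase was Ptbp1, Ptbp3, Ptbp2 in every library. Ptbp1, the form that prevails outside the nervous system, had normalized counts of 66036, 71089, 68335 and 64470 in A1, A2, B1 and B2. Its neuronal counterpart Ptbp2 had 2348, 2096, 2501 and 2106. Ptbp3, known from blood cells, had 11333, 10839, 13467 and 11259. The groups overlapped for each of the 3 genes, and log2 fold changes were -0.05, 0.05 and 0.16, respectively, each with an adjusted p of 1 in the authors' deposited table. Limma gave 95% intervals of 0.85 to 1.11 for the fold of Ptbp1, 0.80 to 1.34 for Ptbp2 and 0.91 to 1.36 for Ptbp3.

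All 7 RBM genes had groups that did not overlap, 4 higher and 3 lower in group B, beside the background of 52.5%. Their median log2 fold change was 0.16 in the authors' deposited table. Rbm47 (ENSMUSG00000070780, chromosome 5, 66016549 to 66173118, mm10) is an epithelial RNA-binding protein that takes part in splicing and in C-to-U editing of apolipoprotein B mRNA. Rbm47 had 1430 and 1685 normalized counts in libraries A1 and A2, and 2466 and 2606 in libraries B1 and B2. The groups lay apart by more than the gap within either of them. The authors' deposited table gives 1557 as the mean of group A and 2536 as that of group B. In limma the log2 fold change was 0.71 (SE 0.15, 95% interval of the fold 1.27 to 2.10), with an adjusted p = 0.0724, so the call was not made by this test. Over the 9 limma settings the adjusted p of Rbm47 ranged from 0.0685 to 0.369.

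Markers of endoderm, an epithelial cell type that such cultures can hold, were mostly higher in group B. Of 13 endoderm markers whose mean reached 10, 9 were higher in both B libraries than in either A library and 1 was lower in both. The backgrounds were 26.4% higher and 26.0% lower. Of these markers 0 were at 0, and 1 passed the threshold of the authors' deposited table. Their summed normalized counts over 14 genes were 124541 to 152044 in group A and 266980 to 389209 in group B. These sums came mostly from Col4a1, Col4a2, Lama1, Lamb1 and Apoe. The genes in this paragraph were named after their values were seen. Gata6 had 744, 535, 8215 and 3503 and Sox17 had 271, 140, 3231 and 1427 in A1, A2, B1 and B2. Neither passed in the authors' deposited table (adjusted p 0.117 and 0.0652). The marker that passed was Foxa1 (23.0, 30.7, 270 and 144, adjusted p 0.0192, authors' deposited table). The marker lower in both B libraries was Ttr, at 26.7, 12.9, 3.67 and 3.55. B1 was above B2 for Gata6 and Sox17. Of 10 macrophage markers 7 were higher in both B libraries and 2 were lower in both, beside the same backgrounds. Of the 10, 0 were at 0 and 2 passed as higher in the authors' deposited table. The medians of the macrophage markers were 47.4 and 29.7 normalized counts in group A against 71.5 and 113 in group B. Their sums, 27290 to 28847 in group A and 21199 to 28154 in group B, came mostly from Laptm5 (17665 to 25863), named after its values were seen. The pluripotency markers, given above, were mostly lower in group B. The part of these cell types in the value of Rbm47 was not tested.

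Rbm5 and Rbm6 are neighbours on chromosome 9, 2563 bases apart on the same strand, and encode related splicing repressors named as candidate tumour suppressors. Rbm5 had normalized counts of 10705, 10993, 12532 and 14771 in A1, A2, B1 and B2. The authors' deposited table puts Rbm5 at a log2 fold change of 0.33 (adjusted p 0.614). Rbm6 had 11935, 13353, 14410 and 13763, with a log2 fold change of 0.16 (adjusted p 1, authors' deposited table). Both genes had their B libraries above their A libraries, with B2 the higher for Rbm5 and B1 for Rbm6. A processed copy, Rbm6-ps1, had 1288 to 1556 normalized counts.

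Rbm25, a U1-associated regulator of 5′ splice sites, had 28232, 27539, 37469 and 29692. The value for B1 stands apart, and its log2 fold change in limma was 0.26 with all libraries, 0.43 without B2 and 0.09 without B1. The authors' deposited table has it at 0.27 (adjusted p 0.734). With all libraries limma did not call Rbm25 (adjusted p = 0.314). Rbm39, a coactivator and partner of the U2AF splicing factor, had 55096, 61289, 54924 and 51156, with A1 just above B1. Rbm8a, the Y14 protein of the exon junction complex, had 32263, 30839, 28719 and 28843, and the libraries of each group were close.

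Rbm4, which favours inclusion of muscle exons, had the lowest log2 fold change of all 40 regulators, -0.41 (adjusted p 0.602, authors' deposited table). Its normalized counts were 772, 839, 666 and 544 in A1, A2, B1 and B2, the A libraries above the B libraries. Exons of Gm21992 on the same strand cover 60.5% of the exon bases of Rbm4, and its close relative Rbm4b had 3125 to 4413 normalized counts. Reads may have been split between these genes or left uncounted, so the value for Rbm4 is uncertain. Gm21992 itself had 118, 223, 261 and 259, higher in group B.

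**Figure D3:**
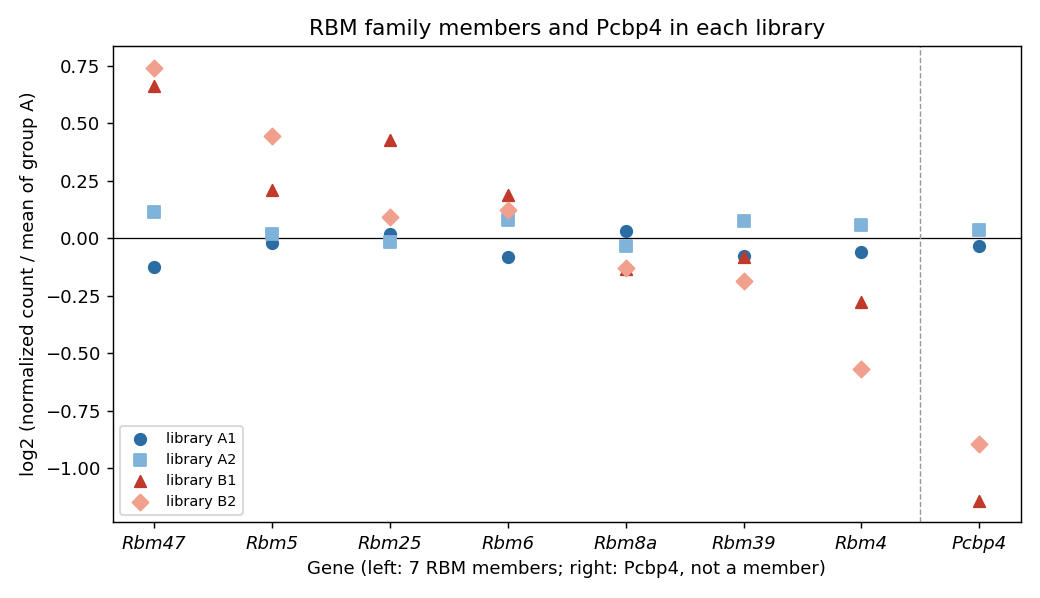
Log2 of each library's normalized count over the mean of group A, for the 7 RBM genes and for Pcbp4, which is outside the 40. The B libraries (red) lie above the A libraries (blue) for Rbm47, Rbm5, Rbm25 and Rbm6 and below them for Rbm8a, Rbm39, Rbm4 and Pcbp4.

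Tissue-restricted regulators were the scarcest family, and 0 of 7 passed the threshold of the authors' deposited table, also without adjustment. Limma called 0 of them, with 2 at an unadjusted p of 0.05 (background 20.7%). Celf1, the widely expressed CUG-binding member, stood apart from the rest at 3926 normalized counts per kilobase, and its groups overlapped (30859, 35260, 35716 and 30800 normalized counts). Rbfox2, the Rbfox gene of stem cells and muscle, had 11137, 12292, 9856 and 9578 in A1, A2, B1 and B2. Group B lay wholly below group A. The log2 difference of Rbfox2 was -0.27 with an adjusted p of 0.815 in the authors' deposited table. Rbfox1, its neuronal and muscle relative, had a mean under 50, with 29.5, 10.9, 22.9 and 16.6, and the groups overlapped. At that level its limma 95% interval spanned folds of 0.39 to 2.94.

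Mbnl1 and Mbnl2, the muscleblind proteins that are sequestered in myotonic dystrophy, lay on opposite sides of 0. Mbnl2 had 4143, 3983, 2914 and 3468 normalized counts in A1, A2, B1 and B2, with both B libraries lower. The log2 fold change of Mbnl2 was -0.35 (adjusted p 0.484, authors' deposited table) and its limma 95% interval of the fold was 0.62 to 0.98. Mbnl1 had 1638, 1376, 1733 and 1717, with both B libraries higher, and a log2 fold change of 0.19 (adjusted p 1, authors' deposited table).

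Of the neuronal Nova genes, Nova1 had 502, 670, 450 and 581 normalized counts and Nova2 had 632, 877, 767 and 962. The A2 value was above A1 and the B2 value above B1 in both genes, and their groups overlapped. Exons of Gm26821 on the other strand cover 31.7% of the exon bases of Nova2. Of 10 neuron markers 2 had both B libraries higher and 3 had both lower, beside backgrounds of 26.4% and 26.0%. Dcx lies on chromosome X, where every gene is listed at 0, so it could not be compared. The median log2 fold change of the markers with a mean of at least 10 was -0.25 in the authors' deposited table. The marker medians, with Dcx counted at 0, were 229 and 254 normalized counts in group A against 81.1 and 79.2 in group B. Their sums went the other way, 27695 to 31407 in group A against 35686 to 38178 in group B, most of it from Stmn2 (24434 to 35976), named after its values were seen.

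Among the other RNA-binding regulators, log2 fold changes ran from -0.06 to 0.19, and all 6 had an adjusted p of 1 in the authors' deposited table. Sfpq and Pspc1 are DBHS proteins of paraspeckles, nuclear bodies built on the Neat1 RNA. Sfpq had 57611, 62037, 62756 and 51957 normalized counts in A1, A2, B1 and B2. Pspc1 had 10689, 7264, 10194 and 10343, where A2 was the low library. Psip1, a chromatin reader that recruits splicing factors, had 23581, 24791, 24306 and 22007. The groups of these 3 genes overlapped. Khdrbs1 (Sam68), a KH-domain regulator that responds to signalling kinases, had 30659, 29884, 36100 and 31476, where the B libraries were the higher pair. The same was so for the KH-domain gene Qk (24808, 25515, 29688 and 25883). Tardbp (TDP-43), which represses cryptic exons, had 55183, 59373, 59304 and 52192, and its groups overlapped.

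Related regulators can replace each other at exons, so the balance of 10 pairs of genes was compared as the log2 ratio of normalized counts per kilobase. With 2 libraries against 2, the smallest two-sided exact permutation p is 0.333, so no pair could pass, and the lowest value adjusted over the 10 pairs was 0.667. In 5 of the 10 pairs the groups did not overlap. No background of other gene pairs was computed, and for single genes that share was 52.5%. Mbnl2 to Mbnl1 showed the largest gap, with log2 ratios of 1.98 and 2.18 in libraries A1 and A2 against 1.39 and 1.66 in libraries B1 and B2. The mean difference of -0.55 was larger than the gaps within groups of 0.19 and 0.26 (exact permutation p = 0.333). Nova2 to Nova1 had ratios of 0.40, 0.45, 0.83 and 0.79, a difference of 0.39 with gaps within groups of 0.06 and -0.04. The pair was even within each group although both genes differed between libraries.

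Ptbp2 to Ptbp1, the balance known to switch in neurons, had log2 ratios of -5.77, -6.04, -5.72 and -5.89, and its groups overlapped. Ptbp3 to Ptbp1 had -3.20, -3.37, -3.00 and -3.18, with the B libraries higher by a mean of 0.20. Hnrnpll to Hnrnpl had -3.86, -3.82, -3.61 and -3.76, also higher in B, by 0.15. Hnrnpa2b1 to Hnrnpa1 had 0.02, 0.27, -0.03 and -0.17, lower in B by a mean difference of -0.25. Rbm6 to Rbm5, Hnrnpdl to Hnrnpd, Pspc1 to Sfpq and Rbfox1 to Rbfox2 had groups that overlapped, with differences of -0.17, 0.08, 0.29 and 0.39. For Rbfox1 the gap between A1 and A2 alone was -1.58.

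**Figure D4:**
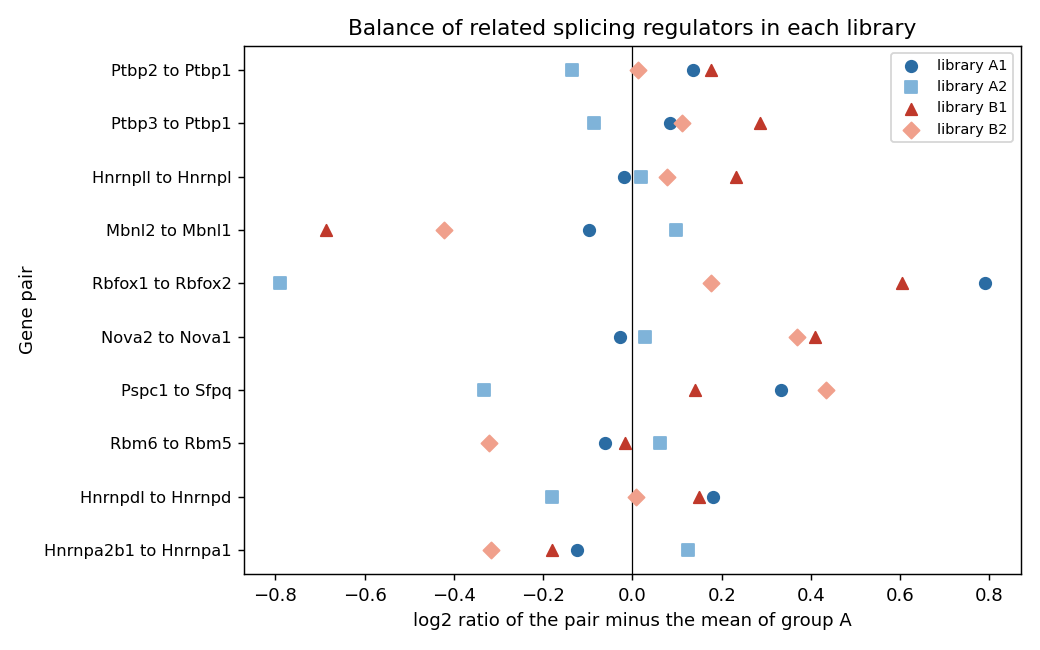
Log2 ratio of each gene pair in each library, less the mean of group A, for libraries A1, A2 (blue) and B1, B2 (red). The B libraries lie apart from the A libraries most widely for Mbnl2 to Mbnl1 (mean difference -0.55) and differ by only -0.04 from each other for Nova2 to Nova1.

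A further 68 splicing regulators outside the 40 were listed in 6 groups, and 61 had a mean of at least 10. Of these, 0 were higher and 1 was lower past the threshold of the authors' deposited table (background 1.54% and 1.92%), and their median log2 fold change was -0.01. At an unadjusted p of 0.05, 10 passed in that file (background 10.5%), and limma called 1 (background 2.01%) with 13 at that level (background 20.7%). The gene was Pcbp4 (ENSMUSG00000023495, chromosome 9, 106453291 to 106464012), a KH-domain protein that binds poly(C) and belongs to the hnRNP E group. Pcbp4 had 10392 and 10916 normalized counts in libraries A1 and A2, against 4829 and 5735 in libraries B1 and B2, and the groups lay far apart. In the authors' deposited table Pcbp4 stands at -1.01 on the log2 scale, and its adjusted p is 4.96e-06. In limma Pcbp4 had a log2 fold change of -1.02 (SE 0.12, adjusted p = 0.0312). Over the limma settings its adjusted p ranged from 0.00720 to 0.313, and the call was lost without A1 (-1.05, adjusted p = 0.182) and without A2 (-0.98, adjusted p = 0.313). 

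By group, the genes called were 1 of 12 measured hnRNP relatives (Pcbp4), 0 of 4 DBHS and nuclear matrix partners, 0 of 11 other RBM genes, 0 of 15 other tissue-restricted regulators, 0 of 14 other broad regulators and 0 of 5 exon junction complex genes. Median log2 fold changes of these groups in the authors' deposited table were -0.09, -0.05, -0.07, 0.07, 0.01 and 0.03. The 6 listed genes with no count were Hnrnph2, Rbmx, Nono, Rbm3, Rbm10 and Mbnl3, named here after their values were seen. All 6 are on chromosome X, where every gene is listed at 0, so these genes could not be compared. Nono, the usual partner of Sfpq and Pspc1, is among them.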

How the data were processed

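Per the submitters' processing notes, reads were handled with STAR and DESeq on build mm10. Tool versions, annotation, filters and how reads were counted are not stated there. The deposited table holds 46608 rows, of which 5 repeat a gene ID. The means of the deposited table are signal values, counts divided by size factors. The authors' fold change is the ratio of group B to group A, deposited also as log2, with p-values and adjusted p-values. The deposited test was used as the main one, at an adjusted p of 0.05.

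Whole counts were recovered from the deposited group means within 1e-06 for 100% of genes, and the steps equalled median-of-ratios size factors. The limma test (version 3.58.1, under R 4.3.3) took log2(normalized count + 1) as input, used a trend of variance on level and Benjamini-Hochberg adjustment, and kept genes whose mean reached 10. Log2 fold changes on that scale understate changes of scarce genes. The procedures were checked on simulated counts. Positions and exon lengths come from GENCODE M21 (mm10).

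Genes and lists were chosen with earlier results of these data known. Library values were to be given for the 2 highest and 2 lowest log2 fold changes of each family, the 6 highest levels per kilobase, genes past the threshold and both genes of each pair; others were added freely. Of the further regulators, those past the threshold were named. Whether the replicates are separate cultures is not stated beyond the words biological replicates.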

Additional observations from a re-analysis of the deposited data

How the results depend on the processing

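With all libraries, the single call among the 40 regulators, Rbm47, was made by the authors' test alone. Limma called 0 of the 40 higher with size factors, with total counts as the scale and with a pseudocount of 10. The count was also 0 with all genes that have a count and with a mean of at least 50. A fit without 1 library leaves 1 library in a group, so genes called only in such fits are not named. Limma called 0 of the 40 lower in each setting. Among the further regulators, leaving out 1 library gave 0 to 2 higher and 0 to 2 lower. Those called higher, without B2, were Magohb and Esrp2, and Rbmxl1 joined Pcbp4 without B1, all named after their values were seen. Pcbp4 was not called without A1 or without A2, where limma called 0 genes in all. Leaving out 1 library moved the median log2 fold change of the 40 between -0.12 (without B1) and 0.06 (0.0635, without B2), that of the hnRNPs between -0.18 and 0.06 and that of the RBM genes between 0.08 and 0.24. The count of regulators whose groups did not overlap was 18 with either scale and 22 to 32 without 1 library, where fewer samples must be separated. Of the 40, 21 kept the direction of the authors' value in all 9 limma settings. With no library left out, the direction changed for Rbfox1, and with total counts also for Hnrnpa0 and Celf1. No paired analysis was possible because the table's columns carry no replicate numbers. Rbfox1 had the widest interval of the 40 and the fewest counts; counting error and the spread between libraries were not separated.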
